A study of Mus musculus with 15 samples.

Results

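Macrophages and osteoclasts are cells of the myeloid lineage that can be carried along when embryonic cartilage is digested and plated, and 33 genes that serve as their markers were followed here, out of 18193 genes that the array names. They comprise 24 macrophage markers and 9 osteoclast markers, listed by gene name with earlier results of these data known. Each was read by its brightest probe set over the 15 arrays, of those annotated to no other gene. Chondrocytes of CD1 mouse embryos at day 15.5 (E15.5), from the cartilage of the hind limbs, were plated in monolayer and exposed to the solvent DMSO, to LY294002, an inhibitor of the lipid kinase PI3K, to U0126, an inhibitor of the kinase MEK, to SB202190, an inhibitor of the kinase p38, or to Trichostatin A (TSA), an inhibitor of histone deacetylases, with 3 biological replicates for each of the 5 treatments and no other agent or allele named. The labels give 24 h of incubation for all 15 cultures whereas the deposited design gives 2 h, the labels write SB202190 as SB90 and U0126 as UO126, the design counts SB202190 among the inhibitors of the MEK pathway, and only the dose of LY294002, 10 µM, is stated. Total RNA was read on Affymetrix MOE 430 2.0 arrays as log2 signals, on which 1 unit is a doubling, and nothing in the labels says that macrophages or osteoclasts were added, sorted or removed.

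Macrophages take their identity from the CSF1 receptor Csf1r and the transcription factor PU.1, and they carry Fc receptors that signal through the adaptors Fcer1g and Tyrobp, the complement proteins C1qa, C1qb and C1qc, and lysosomal proteins such as Cd68, Lyz2 and Ctss. Osteoclasts arise when such precursors meet CSF1 and RANK ligand (Tnfsf11), which binds the receptor RANK (Tnfrsf11a) and induces the transcription factor Nfatc1. Nfatc1 then drives the resorption enzymes Acp5 (TRAP) and Ctsk (cathepsin K) and the fusion proteins Dcstamp and Ocstamp. In cartilage, osteoclasts and related cells remove the calcified matrix around hypertrophic chondrocytes. Several of these genes, Ctsk, Cd68 and Nfatc1 among them, are not restricted to myeloid cells.

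A gene was tested in a comparison when its mean log2 signal reached 5.64, a signal of 50, in either treatment. Of the 24 macrophage markers 16 reached that mean in all 5 treatments and 5 in none, and of the 9 osteoclast markers 8 reached it in all and 1 in none. The 6 that stayed under it were the leukocyte antigen CD45 (Ptprc), the integrin chains Itgam and Itgb2, the cytokine receptor chain Csf2rb, the actin-binding protein Aif1 and the calcitonin receptor Calcr. Ptprc, the defining antigen of all leukocytes, lay between 4.52 and 4.97 over the 15 arrays, and Itgam between 4.63 and 5.03. The receptors Csf1r, from 8.38 to 8.99, and Adgre1, from 7.19 to 8.18, were above it on every array. Reaching 5.64 does not by itself show expression, since 7 of 9 lymphocyte markers and 10 of 11 neutrophil markers also did so in DMSO, the lymphocyte genes Cd3e and Cd4 with means of 7.94 and 7.68. The members are therefore described as marker genes, and no cell type is named from them. The plot of the 33 markers on each array shows most genes with overlapping treatments and a few, such as Coro1a, Cd68, Lyz2, Ctss and Ctsk, with TSA set apart.

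**Figure D1:**
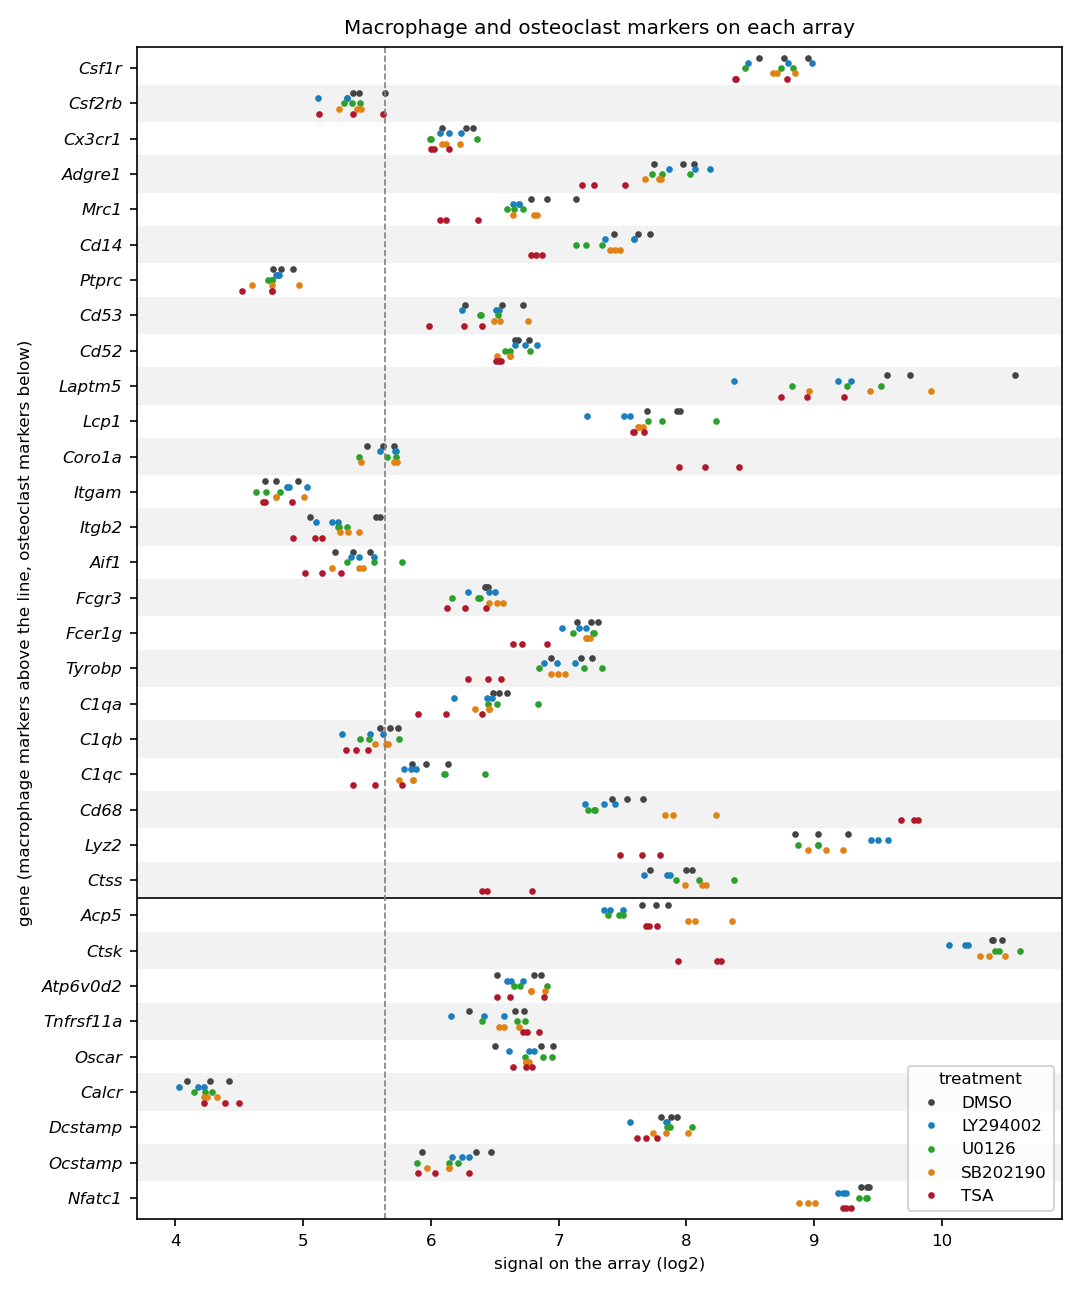
Log2 signal (horizontal axis) of the 33 markers (rows, macrophage markers above the line and osteoclast markers below) on each of the 15 arrays, coloured by treatment; the dashed line is the minimum of 5.64. Ptprc, Itgam, Itgb2, Csf2rb and Calcr lie left of the line on all arrays, and the TSA points of Coro1a and Cd68 lie to the right and those of Ctsk, Lyz2 and Ctss to the left of all other points of their row.

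The windows upstream of the 5 genes with the largest responses to TSA are shown because these members moved in both directions under an inhibitor that acts on chromatin. Each holds the 250 bases before a RefSeq transcript start in the mouse assembly GRCm38.p6, 5′ to 3′ on the gene's strand. Capitals mark 3 motifs read on both strands, GAGGAA (the core bound by PU.1), GGGCGG (the GC box) and TGANTCA (the AP-1 site). The letters CACGTG (the E-box) were searched in the same way.
Cd68, chr11:69666171-69666420, minus strand: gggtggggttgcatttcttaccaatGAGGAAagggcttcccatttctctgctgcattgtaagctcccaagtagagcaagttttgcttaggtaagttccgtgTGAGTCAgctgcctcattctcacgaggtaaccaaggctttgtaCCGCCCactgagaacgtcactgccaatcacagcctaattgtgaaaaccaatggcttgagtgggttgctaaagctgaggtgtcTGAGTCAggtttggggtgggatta
Coro1a, chr7:126704817-126705066, minus strand: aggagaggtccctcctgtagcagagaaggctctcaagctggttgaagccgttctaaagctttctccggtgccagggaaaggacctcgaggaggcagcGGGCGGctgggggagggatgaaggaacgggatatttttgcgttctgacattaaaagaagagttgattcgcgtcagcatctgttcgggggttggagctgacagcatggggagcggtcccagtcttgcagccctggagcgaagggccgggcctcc
Lyz2, chr10:117282273-117282522, minus strand: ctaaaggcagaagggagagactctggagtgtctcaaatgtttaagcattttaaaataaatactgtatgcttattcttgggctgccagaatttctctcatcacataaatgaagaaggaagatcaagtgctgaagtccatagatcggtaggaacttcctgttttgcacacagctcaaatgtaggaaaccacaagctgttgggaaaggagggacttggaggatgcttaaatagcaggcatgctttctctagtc
Ctss, chr3:95526536-95526785, plus strand: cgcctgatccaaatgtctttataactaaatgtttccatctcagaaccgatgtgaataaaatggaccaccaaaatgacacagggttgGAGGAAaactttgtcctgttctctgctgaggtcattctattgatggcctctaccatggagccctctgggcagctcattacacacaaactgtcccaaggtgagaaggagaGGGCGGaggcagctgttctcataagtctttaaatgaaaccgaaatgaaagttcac
Ctsk, chr3:95498960-95499209, plus strand: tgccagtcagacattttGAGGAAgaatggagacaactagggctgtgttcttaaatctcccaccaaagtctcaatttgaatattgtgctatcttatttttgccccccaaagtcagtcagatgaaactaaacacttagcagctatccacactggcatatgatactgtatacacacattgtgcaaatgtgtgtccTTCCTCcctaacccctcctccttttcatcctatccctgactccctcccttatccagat
Of these, the window of Cd68 held 1 PU.1 core, 1 GC box and 2 AP-1 sites, that of Ctss 1 PU.1 core and 1 GC box, and that of Ctsk 2 PU.1 cores. The window of Coro1a held 1 GC box, a further Coro1a start had none of the motifs, and the window of Lyz2 had none. Over the 28 windows kept for 21 members, 50% held the PU.1 core against 23.3% of the 32851 windows of all genes. The GC box was in 42.9% against 32.7%, the AP-1 site in 3.57% against 6.75%, and the E-box in none against 6.02%. Member windows on 1 chromosome were left out, whereas the windows of all genes were not limited in this way. The shares therefore cover unlike sets, and Csf1r, Cd14 and Nfatc1 are among the members without a window here. These are matches of letters and not binding sites, and some members have several overlapping windows. Ctsk and Ctss are neighbours on chromosome 3, and C1qb, C1qc and C1qa lie next to each other on chromosome 4.

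TSA, the histone deacetylase inhibitor, gave the widest differences. Of 27 members tested against DMSO, 12 were lower (all genes, 22.7% called lower) and 2 were higher (all genes, 27% called higher) at an adjusted p under 0.05 in limma. Among 19 tested macrophage markers 11 fell and 2 rose, and among 8 tested osteoclast markers 1 fell and none rose, with 2 of the 8 at an unadjusted p under 0.05, both lower. Of the 14 called, Coro1a, C1qb and C1qc reached the minimum in only 1 of the treatments compared, 3 members that the filter admitted through their higher group. The median difference of the tested members was -0.25 on the log2 scale, and that of all genes -0.04. By signal level, the 3863 genes with a mean from 5.64 to 7 had a median of -0.09. It was -0.08 for the 3062 genes from 7 to 8, 0.0055 for the 2895 from 8 to 9 and 0.06 above 9. In these ranges the members had medians of -0.17 (13 members), -0.36 (8 members), -0.825 (2 members) and -0.99 (3 members). The part of signal level was not tested. The 4 comparisons with an inhibitor share the same 3 DMSO arrays. Since RNA came from whole cultures, fewer cells of a type and less RNA per cell cannot be told apart.

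**Figure D2:**
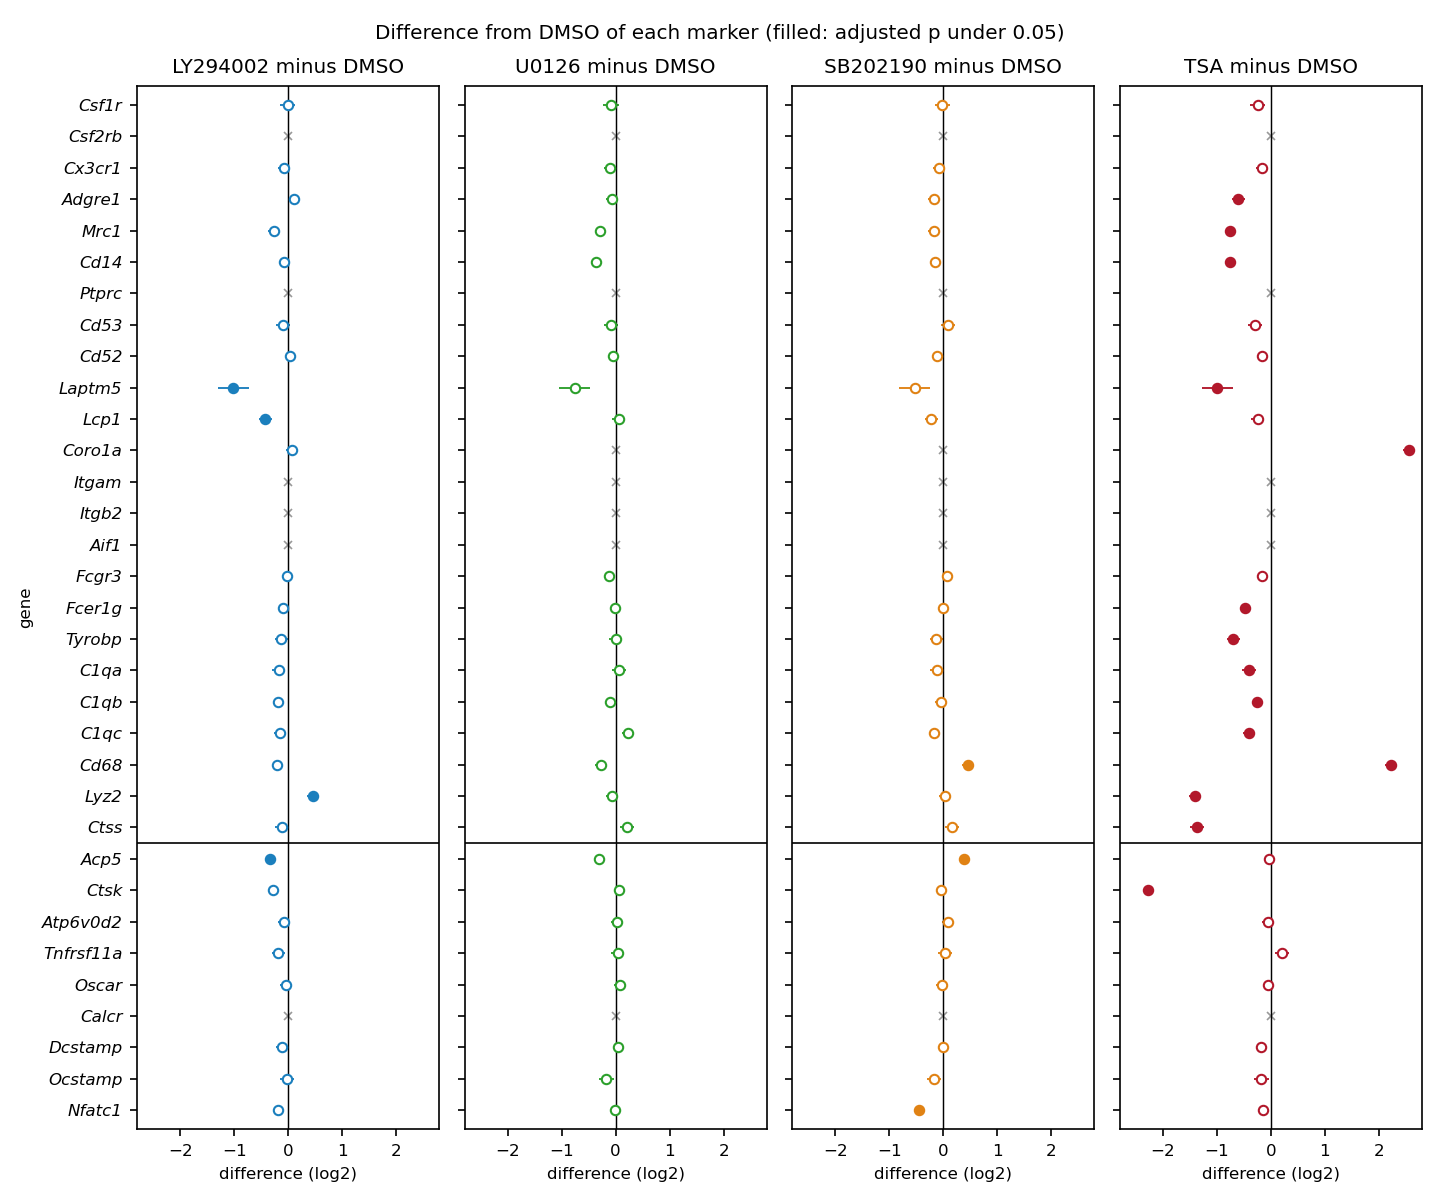
Difference of the mean log2 signal from DMSO (horizontal axis) for each of the 33 markers (rows) under LY294002, U0126, SB202190 and TSA (panels); bars are the standard error from limma, filled points have an adjusted p under 0.05, and a grey cross at 0 marks a gene that was not tested. Filled points number 4 under LY294002, 0 under U0126, 3 under SB202190 and 14 under TSA.

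Coro1a, which encodes the actin regulator coronin 1A of leukocytes, rose the most. Its signals were 5.62, 5.50 and 5.71 in DMSO and 8.41, 7.95 and 8.15 in TSA, and the other inhibitors lay between 5.44 and 5.73. All 3 TSA arrays therefore stood more than 2 log2 units above every other array. The measured difference was 2.56 ± 0.12 (SE; adjusted p = 3.87e-11). The DMSO mean of 5.61 was under the minimum and Coro1a was tested only through its TSA signal, so the rise is given as at least 5.76-fold, taken against that minimum. Its second probe set, with a DMSO mean of 4.95, was at least 3.38-fold higher by the same rule, and the remaining one was not tested. Cd68, a glycoprotein of macrophage lysosomes widely stained to find these cells, also rose. Its signals were 7.53, 7.41 and 7.66 in DMSO and 9.78, 9.68 and 9.81 in TSA, a difference of 2.22 ± 0.10 and a 4.66-fold rise (adjusted p = 4.45e-11). No DMSO array reached a TSA array in either gene.

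The other lysosomal and secreted markers moved the opposite way. Lyz2 encodes the lysozyme of macrophages and neutrophils, and its signal was 8.85, 9.03 and 9.27 in DMSO and 7.80, 7.65 and 7.48 in TSA. It fell by 1.40 ± 0.11, 2.65-fold, with an adjusted p of 2.27e-08; the near-identical gene Lyz1 may share its probes. Ctss, the cysteine protease cathepsin S of antigen-presenting cells, gave 8.04, 7.71 and 7.997 in DMSO against 6.44, 6.79 and 6.40 in TSA, and fell by 1.37 ± 0.13 (adjusted p = 1.74e-07). In both genes the TSA arrays lay below all DMSO arrays.

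Of the receptors, Cd14 (the endotoxin co-receptor) fell from 7.62, 7.43 and 7.71 to 6.78, 6.87 and 6.82, by 0.76 ± 0.09 (adjusted p = 2.79e-06). Mrc1, the mannose receptor, fell from 6.78, 6.91 and 7.13 to 6.12, 6.37 and 6.07, by 0.75 ± 0.10 (adjusted p = 9.42e-06), and Adgre1 fell by 0.60 ± 0.11 (adjusted p = 0.000362). These receptors had TSA arrays below every DMSO array. The CSF1 receptor was less uniform. Its representative probe set had a mean of 8.76 in DMSO and 8.52 in TSA, with overlapping arrays and an adjusted p of 0.184, whereas 2 other probe sets of Csf1r were lower by 0.29 (adjusted p = 0.00369) and 0.43 (adjusted p = 8.62e-05), and their mean over all 3 gave an adjusted p of 0.00111. Cx3cr1, the fractalkine receptor, differed by -0.17 (adjusted p = 0.187).

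The signaling adaptors of Fc receptors fell together, Tyrobp (DAP12) by 0.70 ± 0.12 (adjusted p = 0.000141) and Fcer1g by 0.48 ± 0.09 (adjusted p = 0.000237), while the receptor Fcgr3 itself differed by -0.16 (adjusted p = 0.176). Tyrobp was 6.94, 7.18 and 7.26 in DMSO and 6.29, 6.55 and 6.45 in TSA, without overlap. The 3 chains of C1q, the initiator of the classical complement cascade, were also lower, C1qc by 0.41 ± 0.11 (adjusted p = 0.00591), C1qa by 0.40 ± 0.13 (adjusted p = 0.0158) and C1qb by 0.26 ± 0.10 (adjusted p = 0.0441). C1qb and C1qc passed the filter only through DMSO, since their TSA means of 5.42 and 5.58 lay under the minimum and their DMSO means were 5.67 and 5.99, so their sizes rest on dim signals. Without TSA replicate 3 the adjusted p was 0.0999 for C1qa and 0.145 for C1qb, and the call of C1qb also ended without DMSO replicate 3 (0.0919), without TSA replicate 1 (0.0933), with quantile normalization (0.0504), with median centring (0.0725) and in the 6 arrays alone (0.0641).

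Among the pan-leukocyte markers besides Coro1a, Laptm5, a lysosomal membrane protein of hematopoietic cells, fell by 0.99 ± 0.29 (adjusted p = 0.00961). Without DMSO replicate 3 its fall was 0.69 with an adjusted p of 0.0638, yet the 3 other tested probe sets of Laptm5 were lower as well, by 0.39, 0.82 and 1.64. The tetraspanin Cd53, the surface antigen Cd52 and the actin bundler Lcp1 had lower means by 0.30, 0.17 and 0.24 and did not pass, with adjusted p values of 0.069, 0.0946 and 0.122.

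Ctsk, the collagen-degrading cysteine protease of osteoclasts, which fibroblasts and chondrocytes can also make, fell the most of all members. It gave 10.47, 10.39 and 10.40 in DMSO, between 10.05 and 10.61 under the 3 kinase inhibitors, and 8.24, 7.93 and 8.27 in TSA. The difference was -2.27 ± 0.10, a 4.83-fold fall (adjusted p = 1.70e-11), and every TSA array lay below every other array. None of the remaining osteoclast markers passed with its representative probe set. The phosphatase Acp5 differed by -0.04, the proton pump subunit Atp6v0d2 by -0.05, the receptors Oscar and Tnfrsf11a by -0.05 and 0.21, the fusion proteins Dcstamp and Ocstamp by -0.18 and -0.17, and Nfatc1 by -0.15 (adjusted p = 0.0895). A second probe set of Nfatc1 was lower by 0.42 (adjusted p = 0.00202), and another had a higher mean by 0.18 (adjusted p = 0.167). Their standard errors ran from 0.07 for Nfatc1 to 0.13 for Ocstamp.

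**Figure D3:**
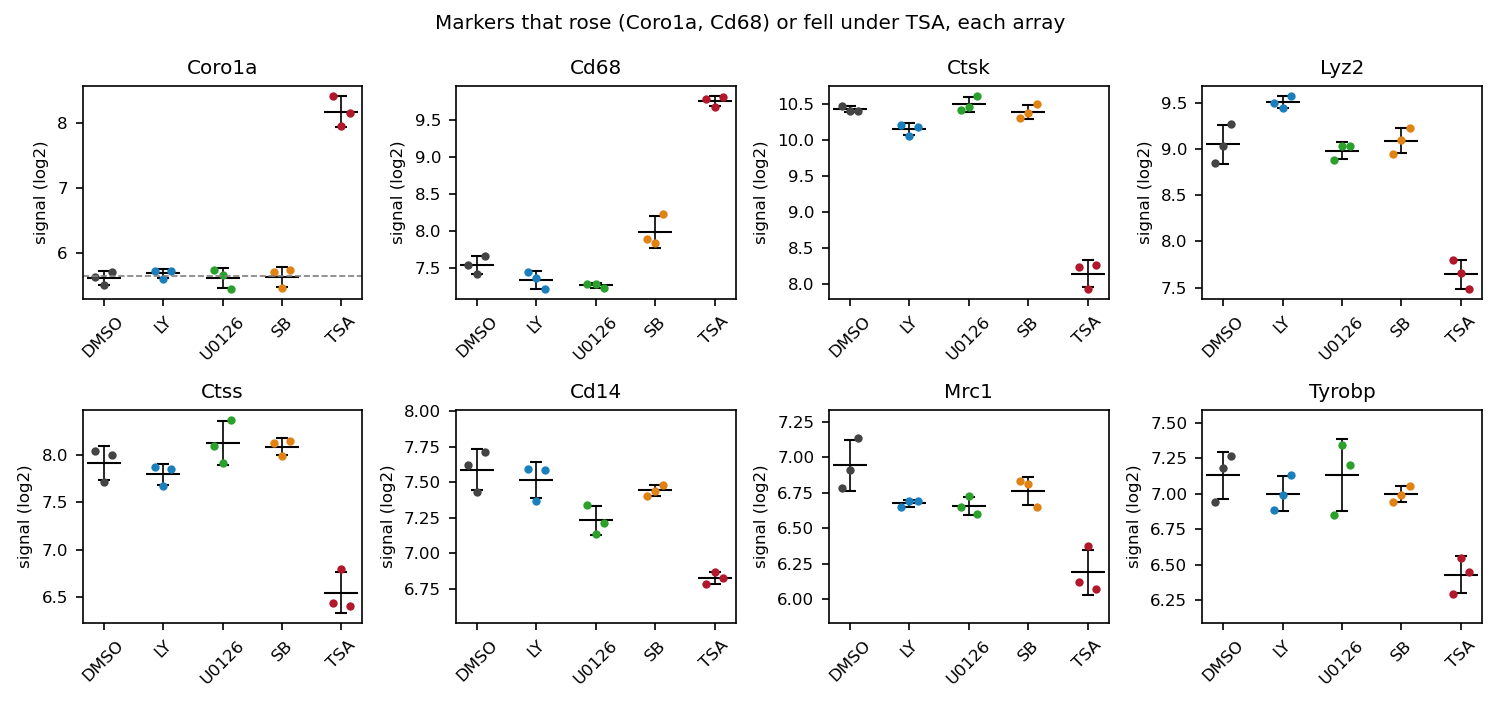
Log2 signal (vertical axis) of 8 markers on each array by treatment (horizontal axis; LY, LY294002; SB, SB202190), with the mean and SD of 3 arrays; the vertical ranges differ between panels, and the dashed line is the minimum of 5.64. The TSA arrays of Coro1a and Cd68 lie above, and those of Ctsk, Lyz2, Ctss, Cd14, Mrc1 and Tyrobp below, all DMSO arrays.

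Other cell types moved under TSA too. All 16 chondrocyte markers tested were lower, with a median difference of -1.33, as were 10 of 12 skeletal muscle markers with a median of -1.26. Of 10 markers of fibroblasts and perichondrium 7 were lower and 2 higher (median -0.36), and of 5 osteoblast markers 3 were lower (median -0.94). Of 7 tested endothelial markers 1 was higher and none lower, and of 3 tested erythroid markers none was called. The summed linear signal of the 24 macrophage markers ranged from 3911 to 5061 over the DMSO arrays and from 3585 to 3904 over the TSA arrays, and that of the 9 osteoclast markers from 2865 to 2933 and from 1714 to 1727. The macrophage sum joins Cd68 and Coro1a, which rose, with the 11 markers called lower. Laptm5, its brightest marker in DMSO, reached 10.57 on DMSO replicate 3. The sums of the 16 chondrocyte markers ranged from 85368 to 90958 in DMSO and from 39757 to 53651 in TSA. The part of a changed mix of cells in the values of single members was not tested. Among 10 tested neutrophil markers 3 were lower and 1 was higher, the granule protease Prtn3, named after its value was seen, with a difference of 3.65 (adjusted p = 9.47e-14). Of 7 tested lymphocyte markers none was called, with 2 lower at an unadjusted p under 0.05, and of 6 tested mast cell markers 1 was lower.

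SB202190, the p38 inhibitor, changed 3 of 26 tested members, 2 higher (all genes, 1.7% called higher) and 1 lower (all genes, 1.01% called lower). Nfatc1, the transcription factor that RANK signaling induces, was 9.37, 9.41 and 9.43 in DMSO and 9.01, 8.95 and 8.88 in SB202190. It fell by 0.45 ± 0.07 (adjusted p = 0.00244), and no SB202190 array reached the lowest array of any other treatment. A second probe set of Nfatc1 fell by 0.56 (adjusted p = 0.0057), and the 3 remaining ones differed by -0.21, -0.14 and -0.04 (adjusted p = 0.417, 0.616 and 0.889). The call of Nfatc1 held in all 15 alternatives, with adjusted p values from 0.000676 to 0.0327.

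Acp5, a downstream enzyme of osteoclasts, rose in the same cultures. Its signals were 7.65, 7.76 and 7.85 in DMSO and 8.07, 8.01 and 8.36 in SB202190, without overlap, a difference of 0.39 ± 0.09 (adjusted p = 0.0411). Cd68 rose by 0.45 ± 0.10 (adjusted p = 0.0324), from 7.53, 7.41 and 7.66 to 7.89, 7.83 and 8.23. Both rises were small and lost their call when arrays were left out. Without SB202190 replicate 3, the highest array in both genes, the differences were 0.28 for Acp5 and 0.33 for Cd68 with adjusted p values of 0.183 and 0.146. The call of Acp5 ended without any 1 of the 6 arrays compared, and that of Cd68 without DMSO replicates 1 or 2 or SB202190 replicates 1 or 3, with adjusted p values up to 0.183 and 0.149. Both also ended in the 6 arrays alone and without the TSA arrays. The lysosomal enzymes Ctss and Lyz2 had means higher by 0.17 and 0.04 and Ctsk a mean lower by 0.04, none past the test. Over the 18 tested macrophage markers 13 had lower and 5 higher means, and over the 8 tested osteoclast markers 5 lower and 3 higher. Of all 15905 tested genes 7833 had lower and 8072 higher means.

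LY294002, the PI3K inhibitor, changed 4 of 27 tested members, 3 lower (all genes, 2.21% called lower) and 1 higher (all genes, 8.85% called higher). Lyz2 rose from 8.85, 9.03 and 9.27 to 9.50, 9.44 and 9.57, by 0.46 ± 0.11 (adjusted p = 0.0173). Its LY294002 arrays lay above all arrays of every other treatment. Lcp1 (L-plastin) fell from 7.69, 7.93 and 7.95 to 7.23, 7.51 and 7.56, by 0.42 ± 0.12 (adjusted p = 0.0404), and its second probe set was lower by 0.55 (adjusted p = 0.0589). Acp5 fell from 7.65, 7.76 and 7.85 to 7.40, 7.50 and 7.36, by 0.34 ± 0.09 (adjusted p = 0.0339). None of the LY294002 arrays overlapped with DMSO in these genes.

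The fall of Laptm5, by 1.01 ± 0.29 (adjusted p = 0.0376), rested on 1 probe set. That probe set, its brightest, gave 9.75, 9.57 and 10.57 in DMSO and 8.37, 9.19 and 9.29 in LY294002, and its SD within treatments ran from 0.25 to 0.53. The 3 other tested probe sets of Laptm5 differed by 0.07, -0.14 and 0.13, each with overlapping arrays, and the mean over all probe sets gave an adjusted p of 0.0691. The 4 calls under LY294002 each ended in at least 4 of the 15 alternatives. Fitting only the 6 arrays of DMSO and LY294002 ended all of them, with adjusted p values of 0.117, 0.11, 0.0863 and 0.112 for Laptm5, Lcp1, Lyz2 and Acp5. Without DMSO replicate 3 the adjusted p was 0.182, 0.145 and 0.142 for Laptm5, Lcp1 and Acp5, without DMSO replicate 2 it was 0.144, 0.0626 and 0.102 for Lcp1, Lyz2 and Acp5, and without LY294002 replicate 1 it was 0.196, 0.194, 0.0556 and 0.104 for Laptm5, Lcp1, Lyz2 and Acp5. Leaving out LY294002 replicate 2 gave 0.0541 and 0.0642 for Laptm5 and Lcp1, and leaving out LY294002 replicate 3 gave 0.0876 for Acp5.

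**Figure D4:**
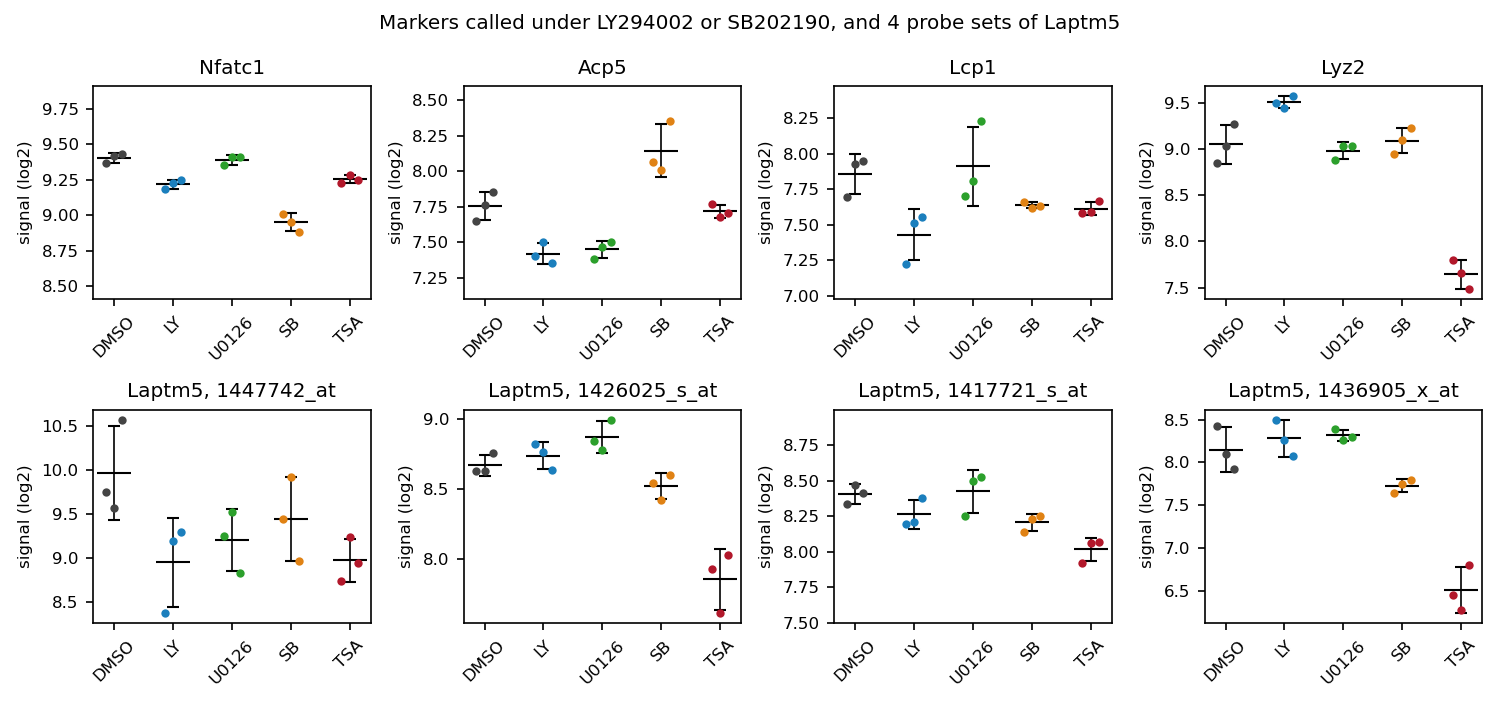
Log2 signal (vertical axis) on each array by treatment (horizontal axis; LY, LY294002; SB, SB202190) of Nfatc1, Acp5, Lcp1 and Lyz2 and of 4 probe sets of Laptm5, with the mean and SD of 3 arrays; the vertical ranges differ between panels. The LY294002 arrays of Laptm5 lie below DMSO with its brightest probe set only, and the TSA arrays lie below DMSO with all 4 probe sets.

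Ctsk had a mean lower by 0.27 ± 0.10 in LY294002, with arrays of 10.20, 10.05 and 10.18 below all DMSO arrays and an adjusted p of 0.0914. With the replicate number as a block the adjusted p of Ctsk was 0.0292. Mrc1 and Nfatc1 were lower by 0.27 (adjusted p = 0.11) and 0.18 (adjusted p = 0.109), and a second probe set of Nfatc1 was lower by 0.33 (adjusted p = 0.0409). In all, 23 of the 27 tested members had lower means in LY294002 (all genes, 7720 of 15907). All 8 osteoclast markers were among them, and the median of the members was -0.12. Dim genes of the whole array shifted the same way: the 3863 genes with a mean from 5.64 to 7 had a median difference of -0.09 and the 3062 genes from 7 to 8 one of -0.07, against 0.13 for the 6005 genes above 9. In the same ranges the members had medians of -0.08 (13 members), -0.12 (8 members) and -0.27 (3 members, all lower). From 8 to 9 the median was 0.22 for 2 members and 0.06 for all genes. After quantile normalization 20 of the 27 members had lower means, and after median centring 19. Markers of other blood cells were likewise lower in the mean, 7 of 7 tested for lymphocytes and 6 of 6 for mast cells, and 16 of 16 chondrocyte markers were higher, with 5 called. The part of signal level and of the mix of cells in the members' lower means was not tested.

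U0126, the MEK inhibitor, changed none of the 26 tested members in limma (all genes, 1.02% called lower and 1.66% called higher), with 5 lower and 0 higher at an unadjusted p under 0.05. Those 5 were Cd14, Acp5, Mrc1, Laptm5 and Cd68. Cd14 came nearest, with 7.62, 7.43 and 7.71 in DMSO and 7.34, 7.14 and 7.21 in U0126, a difference of -0.36 ± 0.09 and an adjusted p of 0.0548. Its arrays did not overlap, and with the replicate number as a block the adjusted p was 0.0139, which makes it a call. Acp5 gave 7.38, 7.47 and 7.50, below all DMSO arrays, with a difference of -0.31 ± 0.09 (adjusted p = 0.135). Laptm5 had a lower mean by 0.76 with its brightest probe set and higher means by 0.02 to 0.20 with its 3 other tested probe sets. In the median the tested members differed by -0.05 and all genes by 0.01.

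The inhibitors were then compared with each other, which tests directly whether their cultures differed. Between U0126 and SB202190 4 of 25 tested members were called (all genes, 6.91%). Acp5 was lower in U0126 by 0.69 ± 0.09 (adjusted p = 0.000184) and Cd68 by 0.72 ± 0.10 (adjusted p = 0.000336), whereas Nfatc1 was higher by 0.44 ± 0.07 (adjusted p = 0.000719) and C1qc by 0.39 ± 0.11 (adjusted p = 0.0482). The calls of Acp5, Cd68 and Nfatc1 held in every alternative, and that of C1qc ended in 8 of 14, among them each leave-out of the 6 arrays (adjusted p from 0.0552 to 0.276). Between LY294002 and SB202190 4 of 26 were called (all genes, 6%). Acp5 was lower in LY294002 by 0.72 ± 0.09 (adjusted p = 0.000268) and Cd68 by 0.65 ± 0.10 (adjusted p = 0.00141), while Lyz2 was higher by 0.42 ± 0.11 (adjusted p = 0.0404) and Nfatc1 by 0.27 ± 0.07 (adjusted p = 0.0327). The calls of Acp5 and Cd68 held in every alternative here too. That of Nfatc1 ended without any 1 of the 6 arrays (adjusted p from 0.0573 to 0.132) and that of Lyz2 without any of them but SB202190 replicate 3 (adjusted p from 0.0767 to 0.204).

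Acp5 thus stood at 7.42 ± 0.08 (SD, n = 3) in LY294002, 7.45 ± 0.06 in U0126, 7.72 ± 0.04 in TSA, 7.76 ± 0.10 in DMSO and 8.14 ± 0.19 in SB202190, where neither LY294002 and U0126 nor TSA and DMSO differed beyond their spread. Between LY294002 and U0126 3 of 26 were called (all genes, 7.27%), Lcp1 lower by 0.48 ± 0.12 (adjusted p = 0.0278), Ctsk lower by 0.34 ± 0.10 (adjusted p = 0.0482) and Lyz2 higher by 0.53 ± 0.11 (adjusted p = 0.00977). The call of Ctsk ended without any 1 of the 6 arrays (adjusted p from 0.0558 to 0.19), and that of Lcp1 without LY294002 replicates 1 (0.145) or 2 (0.0523) or U0126 replicates 2 (0.0512) or 3 (0.133). With the replicate block 5 were called there, C1qc (adjusted p = 0.0232) and Cd14 (adjusted p = 0.0269) in addition. TSA differed in 13 of 26 members from LY294002 (all genes, 46.6%), in 13 of 26 from U0126 (all genes, 49.4%) and in 13 of 26 from SB202190 (all genes, 44.8%). Coro1a, Cd68, Ctsk, Lyz2, Ctss, Adgre1, Mrc1, Cd14, Fcer1g, Tyrobp and Acp5 were called in each of these. Against U0126 and SB202190 Coro1a was tested only through its TSA signal, since its means of 5.61 and 5.63 there lay under the minimum. C1qc, also called between U0126 and TSA, was tested there only through U0126, with a TSA mean of 5.58. Acp5 was lower in LY294002 and U0126 than in TSA, by 0.30 and 0.27, and higher in SB202190 than in TSA by 0.43. The difference from LY294002 lost its call without LY294002 replicate 3 (adjusted p = 0.0626) or TSA replicate 1 (0.0586), and that from U0126 without U0126 replicates 1 (0.0955) or 2 (0.0527) or TSA replicates 1 (0.0883) or 3 (0.0561). Cd68 was lower in each kinase inhibitor than in TSA, with differences of -2.42 in LY294002, -2.49 in U0126 and -1.77 in SB202190.

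The ligands that these cells need were measured alongside. Of 21 tested genes of the CSF1 and RANK pathway, 1 was higher and 2 were lower in LY294002, 0 and 4 in U0126, 0 and 2 in SB202190, and 6 and 3 in TSA. Of all genes, 8.85% were called higher and 2.21% lower in LY294002, and 1.66% and 1.02% in U0126. These shares were 1.7% and 1.01% in SB202190, and 27% and 22.7% in TSA. With the replicate block the counts higher and lower were 3 and 3 in LY294002, where Tnfsf11 (adjusted p = 0.0485) and Cebpb (0.00726) became calls higher, and 2 and 3 in SB202190, where Csf1 (0.0391) and Cebpa (0.0129) did. The 2 calls lower in LY294002 became 0 without DMSO replicate 3 and 1 without DMSO replicate 2 or LY294002 replicates 1 or 2, and the 2 in SB202190 became 0 without SB202190 replicate 2 and 1 without DMSO replicates 1 or 3 or SB202190 replicate 1. Tnfsf11, which encodes RANK ligand, was 7.74, 7.05 and 7.65 in DMSO, 6.25, 5.70 and 6.04 in U0126 and 6.71, 5.87 and 6.18 in SB202190. Neither inhibitor overlapped with DMSO, and Tnfsf11 fell by 1.48 ± 0.23 in U0126 (adjusted p = 0.00142) and by 1.23 ± 0.23 in SB202190 (adjusted p = 0.00856). Without SB202190 replicate 2 the adjusted p of the latter was 0.0572. A second probe set of Tnfsf11 did not pass in either, with differences of -0.56 (adjusted p = 0.131) and -0.52 (adjusted p = 0.15). In TSA it was higher by 0.58 ± 0.23 (adjusted p = 0.0461), a call that ended without DMSO replicate 2 (0.236), without TSA replicate 1 (0.148) and without TSA replicate 3 (0.128). Cebpb and Bcl6 were also called lower in U0126, by 0.62 (adjusted p = 0.0105) and 0.56 (adjusted p = 0.0233). The call of Cebpb ended without U0126 replicate 2 (0.0518) and that of Bcl6 in 5 of 15 alternatives. Second probe sets differed by -0.61 for Cebpb (adjusted p = 0.0614) and -0.11 for Bcl6 (adjusted p = 0.903).

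Tnfrsf11b, osteoprotegerin, the soluble decoy that captures RANK ligand, fell by 1.64 ± 0.19 in TSA (adjusted p = 2.04e-06) and by 0.82 ± 0.19 in SB202190 (adjusted p = 0.035). Its arrays read 10.36, 9.94 and 10.40 in DMSO, 9.28, 9.17 and 9.79 in SB202190 and 8.24, 8.50 and 9.03 in TSA. The fall in SB202190 was called in 9 of 15 alternatives and lost without DMSO replicates 1 (adjusted p = 0.0724) or 3 (0.148) and without SB202190 replicates 1 (0.168) or 2 (0.18), among others. Csf1, the growth factor of macrophages, rose by 0.57 ± 0.11 in LY294002 (adjusted p = 0.00432), from 11.70, 11.56 and 11.75 to 12.36, 12.23 and 12.14. Of its 3 other probe sets 1 rose by 0.49 (adjusted p = 0.0171) and 2 did not pass, with 0.22 (adjusted p = 0.3) and 0.14 (adjusted p = 0.372). In TSA Csf1 rose by 0.64 (adjusted p = 0.000116), a call that held in all 14 alternatives, and its 3 other probe sets rose by 0.66, 2.06 and 1.44. Mitf, a transcription factor of osteoclasts and of pigment cells, fell by 1.27 ± 0.09 in U0126 (adjusted p = 4.11e-06) and by 0.42 ± 0.10 in LY294002 (adjusted p = 0.0113, and 0.0513 without DMSO replicate 3). Its U0126 arrays, 8.71, 8.44 and 8.52, lay more than 0.5 below every other array. The largest differences of the list in TSA besides Tnfrsf11b were those of Cebpa (-1.54), a myeloid and fat cell transcription factor, the kinase Tec (1.09) and the RANK adaptor Traf6 (1.07). Other probe sets of Traf6 rose by less, by 0.51, 0.43 and 0.26, and another differed by -0.09 (adjusted p = 0.674). Spi1, the gene of PU.1, was lower in TSA by 0.40 (adjusted p = 0.000429) and is named here because its motif was searched.

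**Figure D5:**
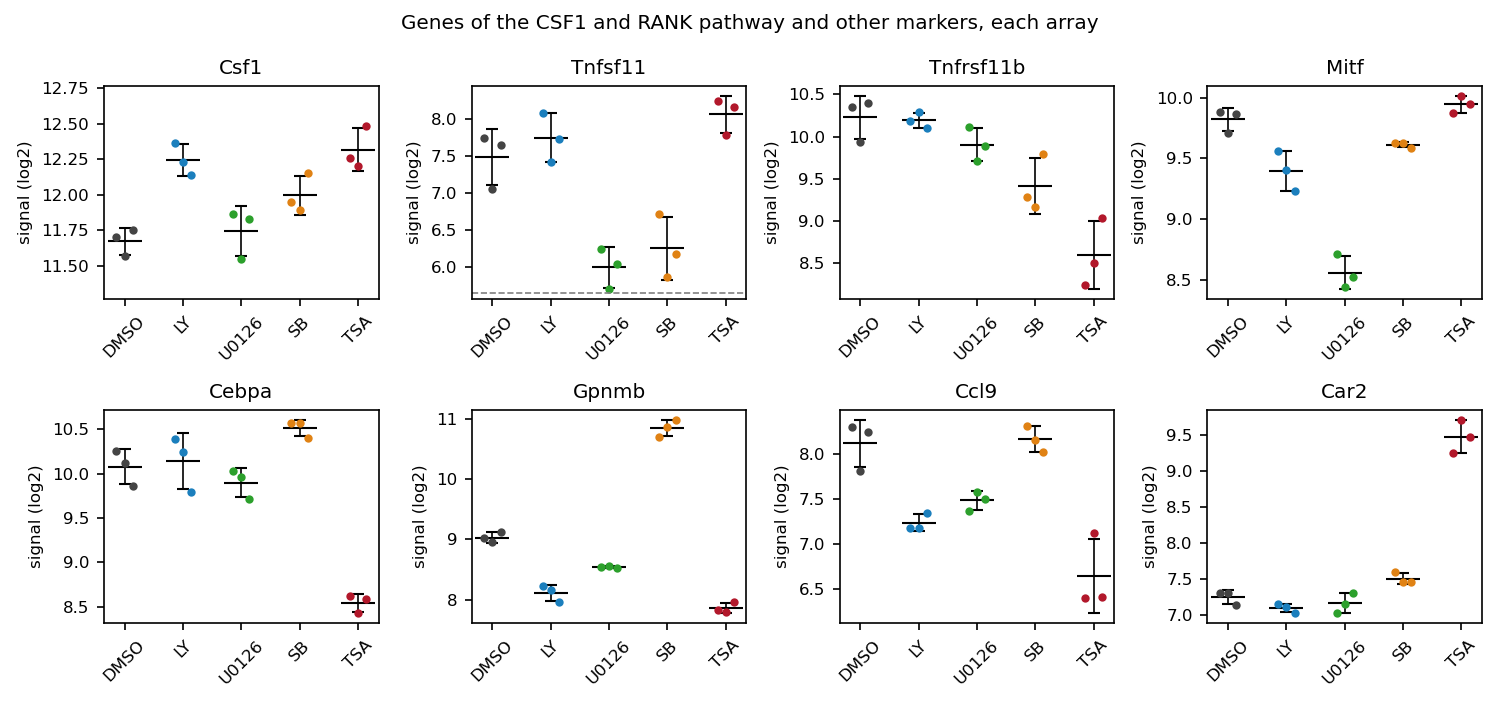
Log2 signal (vertical axis) on each array by treatment (horizontal axis; LY, LY294002; SB, SB202190) of 5 genes of the CSF1 and RANK pathway and of Gpnmb, Ccl9 and Car2, with the mean and SD of 3 arrays; the vertical ranges differ between panels, and the dashed line is the minimum of 5.64. Tnfsf11 is lowest in U0126 and SB202190, Mitf in U0126, and Tnfrsf11b and Cebpa in TSA, and Gpnmb stands above all other treatments in SB202190.

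Further genes of the same cells, listed by name, were counted in the same way. Of 40 further macrophage genes on the array 34 or 35 were tested, and 4 were lower in LY294002, 2 in U0126, 1 in SB202190 and 14 in TSA, while none was higher in LY294002 or U0126, 1 in SB202190 and 3 in TSA. Among all genes 2.21%, 1.02%, 1.01% and 22.7% were called lower in these 4 comparisons, and 8.85%, 1.66%, 1.7% and 27% higher. Over the alternatives the counts lower ran from 2 to 5 in LY294002, from 1 to 3 in U0126, from 0 to 1 in SB202190 and from 10 to 18 in TSA, and those higher in TSA from 1, without TSA replicate 1, to 3. In LY294002 the count was 2 without DMSO replicate 3 or any 1 LY294002 array, and among its 4 genes the calls of Pf4 and P2ry6 ended in 9 of 15 and 8 of 14 alternatives. In U0126 the call of Arhgdib ended without any 1 of the 6 arrays, and the count was 1 without any of them but DMSO replicate 2, while in SB202190 the call of P2ry6 ended, leaving 0, without DMSO replicates 1 or 3 or any 1 SB202190 array. Gpnmb, a lysosomal glycoprotein of macrophages, osteoclasts and pigment cells, was called in all 4 comparisons. Its signals were 9.02, 8.95 and 9.12 in DMSO and 10.71, 10.88 and 10.98 in SB202190, a rise of 1.82 ± 0.09, 3.54-fold (adjusted p = 2.59e-08), and its second probe set ran from 4.58 to 5.24 in DMSO and from 6.05 to 6.32 in SB202190. It fell by 0.92 in LY294002 (adjusted p = 3.84e-05), by 0.49 in U0126 (adjusted p = 0.00773) and by 1.17 in TSA (adjusted p = 2.17e-08). These calls of Gpnmb held in every alternative. The chemokine Ccl9 fell by 0.88 in LY294002 (adjusted p = 0.00402) and by 1.47 in TSA (adjusted p = 1.37e-06). In TSA the protease Lgmn rose by 1.29 (adjusted p = 5.46e-08) and the chemokine Ccl2 by 1.66 (adjusted p = 0.00734), the latter with an adjusted p of 0.051 without TSA replicate 1.

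Of 11 further osteoclast genes, all tested, 1 was higher and 1 lower in LY294002, 1 higher in U0126, 1 higher in SB202190, and 5 higher and 2 lower in TSA. The shares called higher among all genes were 8.85%, 1.66%, 1.7% and 27% in that order. Those called lower were 2.21%, 1.02%, 1.01% and 22.7%. The LY294002 calls were Jdp2, higher, and Snx10, lower, and without DMSO replicate 3 neither was called. That of Jdp2 also ended without LY294002 replicate 1 and with the mean of all probe sets (adjusted p = 0.253), its second probe set having a lower mean by 0.15, and that of Snx10 ended in 9 of 15 alternatives, among them the omission of any 1 of the 6 arrays but LY294002 replicate 1. The rises in TSA were led by Car2, the carbonic anhydrase that supplies protons for resorption, from 7.31, 7.31 and 7.14 to 9.24, 9.71 and 9.47. That was a difference of 2.22 ± 0.11 (adjusted p = 7.48e-11), next to 1.05 for Plekhm1 and 1.01 for Ostm1, both lysosomal proteins of the ruffled border, while the podosome protein Sh3pxd2a fell by 1.09. A second probe set of Sh3pxd2a differed by -0.12 and did not pass (adjusted p = 0.257). Jdp2, the other gene called lower in TSA, fell by 0.36 (adjusted p = 0.00418). Itgb3 and Snx10, the other genes called higher in TSA, rose by 0.99 (adjusted p = 7.99e-07) and 0.78 (adjusted p = 5.03e-06). A second probe set of Itgb3 differed by -0.12 and did not pass (adjusted p = 0.339). Ostm1 also rose in SB202190 by 0.47 ± 0.10 (adjusted p = 0.0163), a call that ended without DMSO replicate 2 (0.09), SB202190 replicate 2 (0.0568) or SB202190 replicate 3 (0.0845). Under TSA, Ctsk, Jdp2 and, with its representative probe set only, Sh3pxd2a were thus lower. Car2, Plekhm1, Ostm1, Snx10 and, with its representative probe set only, Itgb3 were higher.

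The genes whose signals most resembled the mean of the 16 macrophage members called in any comparison were sought among all other genes over the 15 arrays. Kif24, a kinesin, came first with a Pearson correlation of 0.943, followed by Il15ra at 0.936, Vmn1r42 at 0.928 and Hils1 at 0.926, and the tenth, P2rx5, reached 0.892. None of the 10 belongs to the lists of further macrophage genes. The averaged members were chosen by their calls on these same arrays. They join Coro1a and Cd68, higher in TSA, with members lower in TSA, so opposite movements partly offset in the mean. The ranking describes that mean only. The 15 points share 5 treatments, and each of the 10 genes had a lower mean in TSA than in DMSO, for example 7.09 against 7.94 for P2rx5 and 7.56 against 7.86 for Kif24.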

How the data were processed

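The deposited table holds log2 signals, 1 per probe set and array, that the authors normalized. The methods name GC-RMA for this table, whereas their section on gene set analysis names Robust Multichip Analysis with RMAExpress. The values alone do not settle the algorithm. Array medians lay between 6.90 and 7.00. There are no reads to count behind such signals, so precision rests on how many arrays there are. The table has 45101 probe sets; 64 array controls were dropped, and 34945 of the others carried 1 annotated symbol, 932 several and 9160 none. The 33 members, the lists and the naming rule were chosen with earlier results of these data known. By that rule all members were described, then up to 4 called genes with the largest change per list and comparison for the pathway and further genes, counts for other cell types, and the 10 genes most like the called macrophage members. Of the listed genes outside the members, 13 were not analysed here.

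All 15 arrays entered 1 linear model with a mean for each treatment (limma 3.58.1, R 4.3.3), which left 10 residual degrees of freedom, and variances were moderated by empirical Bayes. A probe set was tested where its mean reached log2 of 50 in either treatment compared. Two-sided p values were adjusted by Benjamini-Hochberg over all probe sets tested, and shares of all genes count 1 probe set per gene. The code was tested on simulated data. An exact permutation test, whose smallest p here is 0.1, was not used. Same-numbered arrays were taken as paired where the deviations from their treatment means correlated above 0.1 in every pair. With DMSO these correlations ran from 0.367 to 0.748 in LY294002, from 0.295 to 0.695 in U0126, from 0.224 to 0.302 in SB202190 and from 0.0288 to 0.451 in TSA. The numbers therefore pair the arrays in all comparisons but TSA with DMSO and TSA with LY294002 (lowest -0.11). Alternatives were a replicate block, a fit of the 6 arrays compared, dropping the filter or raising it to a signal of 100, quantile normalization, median centring, robust moderation with a trend, averaging all probe sets of a gene, and leaving out each array. A fit without the TSA arrays was added after the values were seen. Upstream windows are RefSeq sequences of GRCm38.p6. Those of 21 members were used, after member windows on 1 chromosome had been left out.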

Additional observations from a re-analysis of the deposited data

How the results depend on the processing

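Counts of members called changed by more than 1.5 times under these settings. Against DMSO, the members called lower in LY294002, 3 as reported, were 0 with the 6 arrays alone and without the TSA arrays, 5 with quantile normalization and 1 with median centring, and the 1 called higher was 0 with the 6 arrays alone and with quantile normalization. In U0126, where none was called lower, 1 was called (Cd14) with the replicate block, with a filter at a signal of 100, with quantile normalization and with the mean of all probe sets. In SB202190 the 1 member called lower became 2 with the mean of all probe sets, and the 2 called higher became 0 with the 6 arrays alone and without the TSA arrays. Between LY294002 and U0126 the 3 called became 5 with the replicate block, 1 with the 6 arrays alone and 5 with the mean of all probe sets, and between LY294002 and SB202190 the 4 called became 2 with quantile normalization. The replicate block moved no other count by over 1.5 times; for TSA against DMSO, where the numbers do not pair the arrays, it added calls of Cd53, Lcp1 and Tnfrsf11a.

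Leaving out 1 array at a time gave 0 to 4 members lower and 0 to 1 higher in LY294002, 0 to 1 lower and 0 to 0 higher in U0126, 1 to 1 lower and 0 to 1 higher in SB202190, and 10 to 13 lower and 2 to 2 higher in TSA. Between inhibitors it gave 1 to 2 for LY294002 and U0126, 2 to 3 for LY294002 and SB202190, 11 to 14 for LY294002 and TSA, 3 to 3 for U0126 and SB202190, 12 to 14 for U0126 and TSA, and 12 to 16 for SB202190 and TSA. A called sign never turned against DMSO. Laptm5, which did not differ between LY294002 and TSA with its representative probe set, was higher in LY294002 by 0.57 (adjusted p = 5.55e-06) with the mean of all probe sets. Of the 14 calls in TSA 11 held in all alternatives in which the gene was tested, of 3 in SB202190 1 and of 4 in LY294002 none. The cause of these shifts was not tested. Of the members, 5 macrophage markers and 1 osteoclast marker stayed under the minimum signal in every treatment and had no test.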
